A study of Mus musculus with 6 samples.

Results

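The genes described here are 38 genes of the endoplasmic reticulum (ER) folding and secretory stress machinery, measured in stomach antrum of 3 mouse strains. They were chosen by symbol, for their function, from the names that the array platform gives its probe sets, where Ero1l is listed as Ero1a. Earlier results of these data were known when they were chosen. All 38 were on the array, as 81 probe sets, and each gene was read from the probe set with the highest mean over the 6 arrays. All 38 passed the filter on low signal (a mean log2 value above 5.74; the lowest member, Trib3, had 5.89), and they are 38 of 9395 genes tested and of 12393 genes with a probe set naming that gene alone. By role they comprise 6 transcription factors and sensors, 10 chaperones and co-chaperones, 7 genes of disulfide formation, 6 of translocation, 5 of ER-associated degradation and 4 targets of ATF4 and CHOP.

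Secreted and membrane proteins enter the ER through the Sec61 channel, fold there with the help of chaperones such as BiP (Hspa5) and calreticulin (Calr), and acquire disulfide bonds from protein disulfide isomerases, which the oxidase ERO1 recharges. Proteins that fail to fold are sent back to the cytosol and degraded. When unfolded protein accumulates, the sensors IRE1 (Ern1), ATF6 and PERK start the unfolded protein response, in which the transcription factors XBP1, ATF6 and ATF4 induce these same genes. In the gastric antrum the load comes from mucins, digestive enzymes and hormones, and AGR2 is a disulfide isomerase known for its part in mucin production.

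Total RNA of the antrum, the distal part of the stomach, was hybridised to 1 array per sample, with 2 arrays each of Satin mice, Beige mice and C57/BL6 mice (BL6 below). Satin is the strain of interest, in a study of gastric cell lineages with regard to FOXQ1, a forkhead transcription factor, and the labels name Beige and BL6 as controls. The satin coat mutation lies in Foxq1 and the beige mutation in Lyst, as background. The labels give no allele, age, sex or treatment and do not say whether a sample is 1 animal or a pool, nor whether Satin mice also carry the beige mutation, so the p-values rest only on how far arrays of a strain spread, and that spread may be technical. The antrum is a mixture of cells, so fewer cells of a type and less RNA per cell cannot be told apart.

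Several features of the arrays bear on the results. The median deposited signal of an array ranged from 38.2 to 49.5 among controls, whereas Satin had 58.6 and 74.15. RNA integrity, read as the Gapdh signal at the 5' end over that at the 3' end, was 0.526 on the first BL6 array and 0.988 to 1.18 on the other 5. The mean log2 value of 14 pancreatic acinar markers was 7.28 and 12.80 on the BL6 arrays, 7.68 and 9.96 on Beige and 7.33 and 11.64 on Satin, so that the second array of each strain stood above the first. Foxq1 had log2 values of 10.13 and 10.17 (BL6), 9.88 and 9.38 (Beige) and 10.46 and 10.41 (Satin) (difference 0.55, adjusted p = 0.166, limma), and a transcript level does not by itself check which mutation a sample carries. Among defining markers of the tissue, the antral hormone gene Gast was 11.82 to 12.22 on the control arrays and 10.18 and 11.08 on Satin, and the surface mucin gene Muc5ac was 12.66 to 13.11 on the controls against 8.56 and 8.58 on Satin.

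The factors of the unfolded protein response are known to act through short promoter elements, 4 of which were searched for. RefSeq's promoter table (build GRCm38.p6) held 31 of the 38 genes, and the 250 bases before each gene start were read on both strands. Of the 31, 10 held at least 1 of the elements. The ER stress element, written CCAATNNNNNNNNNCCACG, occurred in 7 of the 31 (22.6%), Calr, Canx, Dnajc3, Hsp90b1, Hspa5, Pdia6 and Syvn1, against 37 of all 32851 promoters in the table (0.113%). The element is known from chaperone promoters, so its presence in such genes is not independent of how they were chosen. ER stress element II, ATTGGNCCACG, occurred in Herpud1 alone (3.23% of members, 0.0304% of all promoters). The core of the ATF4 site, TGATGNAA, occurred in Asns, Chac1 and Herpud1 (9.68%, against 3.45% of all promoters). The core of the unfolded protein response element, TGACGTGG, was in none of the 31 and in 0.563% of all promoters.

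Shown first are the whole 250-base windows of Pdia6, Dnajc3 and Asns, 3 of the members with the smallest p-values below, and of Hspa5, the chaperone best known for this element. Ero1l, also among the smallest p-values, held none of the elements searched for and is not shown. Capitals mark the fixed bases of the ER stress element, and in Asns the fixed bases of the ATF4 core. All are written 5' to 3' on the strand of the gene. Pdia6 lies at chr12:17266339-17266588 on the + strand, Dnajc3 at chr14:118937682-118937931 on the + strand, Hspa5 at chr2:34771840-34772089 on the + strand and Asns at chr6:7693210-7693459 on the - strand. Their elements begin 98, 105, 65 and 23 bases before the gene start in that order.
Pdia6: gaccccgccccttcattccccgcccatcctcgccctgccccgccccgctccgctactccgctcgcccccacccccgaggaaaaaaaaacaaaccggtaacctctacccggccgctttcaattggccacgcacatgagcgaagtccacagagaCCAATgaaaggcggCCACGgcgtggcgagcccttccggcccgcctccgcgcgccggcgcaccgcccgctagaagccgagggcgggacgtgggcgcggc
Dnajc3: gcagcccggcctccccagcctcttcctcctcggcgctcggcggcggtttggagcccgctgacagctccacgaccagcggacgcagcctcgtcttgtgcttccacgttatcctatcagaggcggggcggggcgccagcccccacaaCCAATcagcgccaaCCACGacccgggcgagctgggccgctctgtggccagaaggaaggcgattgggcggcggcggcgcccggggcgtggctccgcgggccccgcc
Hspa5: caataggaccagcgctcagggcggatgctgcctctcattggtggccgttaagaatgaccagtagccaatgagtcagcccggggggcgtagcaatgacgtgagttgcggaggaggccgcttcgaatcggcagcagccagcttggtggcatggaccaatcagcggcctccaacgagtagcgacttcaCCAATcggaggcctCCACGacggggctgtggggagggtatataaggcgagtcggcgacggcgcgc
Asns: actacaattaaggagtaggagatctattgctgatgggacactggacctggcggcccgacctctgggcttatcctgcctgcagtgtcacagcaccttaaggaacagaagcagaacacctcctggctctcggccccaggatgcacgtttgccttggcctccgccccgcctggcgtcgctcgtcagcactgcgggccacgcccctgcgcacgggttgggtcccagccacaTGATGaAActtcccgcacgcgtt

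Shorter windows show the element in the reverse orientation (Calr), in a degradation gene (Syvn1), and both kinds of site side by side (Herpud1), with the ATF4 core of Chac1 for comparison. Capitals again mark fixed bases of the motifs. Calr lies at chr8:84847055-84847113 on the - strand, Syvn1 at chr19:6046512-6046570 on the + strand, Herpud1 at chr8:94386297-94386407 on the + strand and Chac1 at chr2:119351029-119351076 on the + strand. In Herpud1 the ATF4 core reads on the opposite strand 112 bases before the start and element II on the strand of the gene 52 bases before it.
Calr: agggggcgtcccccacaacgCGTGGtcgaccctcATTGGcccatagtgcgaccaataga
Syvn1: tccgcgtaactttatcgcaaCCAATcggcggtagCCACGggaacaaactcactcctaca
Herpud1: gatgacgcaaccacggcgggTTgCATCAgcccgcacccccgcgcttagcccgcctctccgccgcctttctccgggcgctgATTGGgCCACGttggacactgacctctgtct
Chac1: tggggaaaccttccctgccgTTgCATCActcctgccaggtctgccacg

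No gene of the 38 passed the test between Satin and the mean of the control strains (limma, Benjamini-Hochberg adjusted p under 0.05 over 9395 genes), where 1.44% of all genes did (135 genes, 41 higher and 94 lower in Satin). The smallest adjusted p among the members was 0.0568, for Asns. Log2 differences of Satin minus the mean of BL6 and Beige ran from -0.97 for Pdia6 to 0.46 for Derl1, with a median of -0.04, 17 genes above 0 and 21 below, against a median of -0.00 over all genes. No member differed by more than 2-fold, against 1.94% of all genes. At an unadjusted p under 0.05 there were 11 members (28.9%) against 12.6% of all genes. The members were chosen with earlier results of these data known, and they spread less within strains than all genes, as given below. The share is therefore a description and not a test of the set.

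The direction of these 11 was uneven. 8 were lower in Satin (21.1%, against 7.42% of all genes), namely Hspa5, Calr, Dnajc3, Pdia5, Pdia6, Ero1l, Agr2 and Asns, and 3 were higher (7.89%, against 5.14%), namely Creb3l1, Syvn1 and Derl1. Both Satin arrays lay below all 4 control arrays for the same 8 genes, which is 21.1% of members against 12.7% of all genes. They lay above all 4 for 5 genes, the last 3 with Xbp1 and Pdia3, which is 13.2% against 11.0%. These shares describe genes of related function, which are not independent of one another, and they depend on how the arrays are scaled, as given below. The limits given for the share at an unadjusted p hold for them too.

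On the probe sets used and after quantile normalisation, the arrays bounded most of the members. The median standard deviation within a strain was 0.17 log2 units for the members and 0.24 for all genes, and it exceeded 0.5 for Sdf2l1, Herpud1, Edem1 and Chac1. The 95% interval of the difference, from limma's standard error and without adjustment, had a median half-width of 0.35 and ranged from 0.29 to 1.11. For 33 of the 38 genes the whole interval lay within 1 log2 unit (2-fold) of 0. The intervals do not take in the choice of scaling or probe set. The largest member difference was 1.00 (Derl1) with the signals as deposited and 1.05 (Derl1) with hybridization controls. Of the other probe sets of Ssr1, 1 gave 1.81 and 1 gave 0.01.

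**Figure D1:**
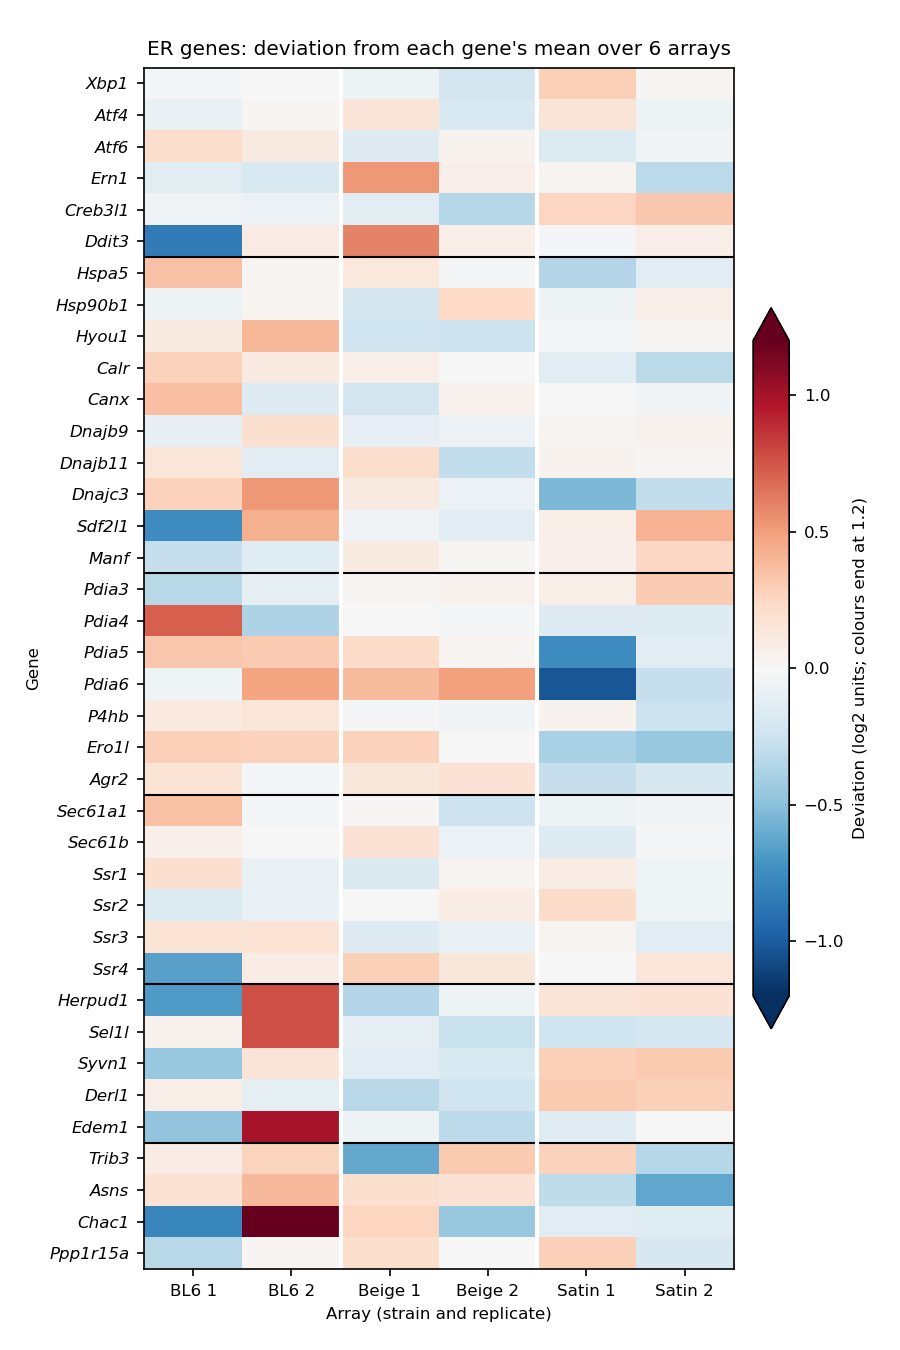
Deviation of each of the 38 genes (rows, grouped by role) from its own mean over the 6 arrays (columns), in log2 units, with red above and blue below the mean. Pdia6, Ero1l, Asns and Dnajc3 are below their mean on both Satin arrays, Creb3l1, Syvn1 and Derl1 above it, and Herpud1, Sel1l, Edem1 and Chac1 are highest on the second BL6 array.

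The transcription factors and sensors had a median difference of 0.05, with 4 of 6 above 0 and none past the test. Creb3l1, an ER-anchored transcription factor of secretory cells, had log2 values of 8.21 and 8.18 (BL6), 8.13 and 7.91 (Beige) and 8.51 and 8.58 (Satin). Both Satin arrays lay above all controls, with a difference of 0.44 (SE 0.15, 1.36-fold, adjusted p = 0.254, limma). Xbp1, the factor whose mRNA IRE1 splices, read 11.16 and 11.19 (BL6), 11.13 and 10.97 (Beige) and 11.47 and 11.20 (Satin). Its lower Satin array barely cleared the higher BL6 array, and the difference was 0.22 (SE 0.14, adjusted p = 0.593). The array reads total Xbp1 here and gives no value for its splicing. Atf4 (0.07), Ddit3, which encodes CHOP (0.04), Atf6 (-0.16) and Ern1 (-0.22) had intervals that included 0.

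The 10 chaperones and co-chaperones divided evenly, 5 above and 5 below 0, with a median of -0.00. Dnajc3, the co-chaperone P58IPK, measured 9.21 and 9.45 (BL6), 9.04 and 8.86 (Beige) and 8.39 and 8.64 (Satin). The Satin arrays lay below all controls, 0.63 log2 units under their mean (1.54-fold, SE 0.16, adjusted p = 0.101, limma). Other probe sets of Dnajc3 gave -0.34, -0.36, 0.28 and 0.07. Calr, the lectin-type chaperone of glycoproteins, measured 11.87 and 11.70 (BL6), 11.68 and 11.59 (Beige) and 11.47 and 11.27 (Satin), a difference of -0.34 (SE 0.14, adjusted p = 0.324). Hspa5, which encodes the central ER chaperone BiP, measured 12.07 and 11.75 (BL6), 11.84 and 11.69 (Beige) and 11.36 and 11.58 (Satin). Its difference was -0.37 (SE 0.15, adjusted p = 0.338), and the groups did not overlap. Other probe sets gave 0.17 for Hspa5 and -0.20 and -0.08 for Calr.

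Other chaperones differed little. The ER HSP90 gene Hsp90b1 (0.01), the BiP exchange factor gene Hyou1 (-0.01), the membrane lectin chaperone gene Canx (-0.03) and the BiP co-chaperone genes Dnajb11 (0.05) and Dnajb9 (0.06) were within 0.06 of 0, with 95% intervals of half-width 0.32 to 0.41. Manf, a secreted stress-induced factor, differed by 0.23 and Sdf2l1, a partner of Dnajb11, by 0.37. Sdf2l1 was 6.07 and 7.25 on the BL6 arrays, a range that covered every other array.

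Disulfide formation was the role with most members below 0, 6 of 7, with a median of -0.35, none past the test. Over all genes 49.92% were above 0. The direction depended on the scaling. As deposited, Pdia6, Pdia5 and Ero1l were below 0, and Agr2 (0.02), P4hb (0.17), Pdia4 (0.22) and Pdia3 (0.78) were above it. After quantile normalisation the mean log2 value of the 7 genes was 9.87 and 9.80 (BL6), 9.84 and 9.80 (Beige) and 9.34 and 9.53 (Satin). Pdia6, a disulfide isomerase that acts with BiP, had the lowest difference of the 38. It measured 9.53 and 10.06 (BL6), 9.96 and 10.08 (Beige) and 8.56 and 9.31 (Satin), so the lower Satin array stood 0.75 below the other. The difference was -0.97 (SE 0.23, 95% interval -1.48 to -0.46, 1.96-fold lower, adjusted p = 0.0797, limma). The value depended on the first Satin array, where the goblet cell markers also had a mean of 7.42 against 10.00 to 10.37 elsewhere, and their part in it was not tested. It was -0.60 (adjusted p = 0.714) without that array and -1.35 (adjusted p = 0.028) without the second. Over 19 other settings it passed in 4, with adjusted p from 0.0116 to 0.714 and differences from -1.35 to -0.40.

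Ero1l, the oxidase that supplies disulfides to the isomerases, was tight within strains. It measured 10.18 and 10.17 (BL6), 10.17 and 9.89 (Beige) and 9.50 and 9.44 (Satin), with both Satin arrays below all controls. The difference was -0.63 (SE 0.14, 1.55-fold lower, adjusted p = 0.0664, limma). It passed the test in 2 of 19 other settings, without the second BL6 array (-0.62, adjusted p = 0.0472) and with robust variance (adjusted p = 0.0484). Over all 19 the adjusted p ran up to 0.84, and it was 0.272 and 0.155 without a Beige array and 0.418 and 0.336 without a Satin array. Ero1l had a pair of other probe sets, which gave -0.51 and -0.52.

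Pdia5, another isomerase, measured 7.58 and 7.57 (BL6), 7.48 and 7.29 (Beige) and 6.50 and 7.13 (Satin), a difference of -0.66 (SE 0.22, adjusted p = 0.23, limma), with the first Satin array well below the second. Agr2 measured 12.11 and 11.93 (BL6), 12.08 and 12.12 (Beige) and 11.67 and 11.75 (Satin) (-0.35, SE 0.13, adjusted p = 0.288). The other probe set of Agr2 gave 0.53. Pdia3, the isomerase that works with calreticulin and calnexin, was the exception in direction. It measured 9.67 and 9.89 (BL6), 10.02 and 10.06 (Beige) and 10.08 and 10.31 (Satin) (0.28, SE 0.14, adjusted p = 0.461). P4hb, the classical disulfide isomerase, differed by -0.16 and Pdia4 by -0.23.

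**Figure D2:**
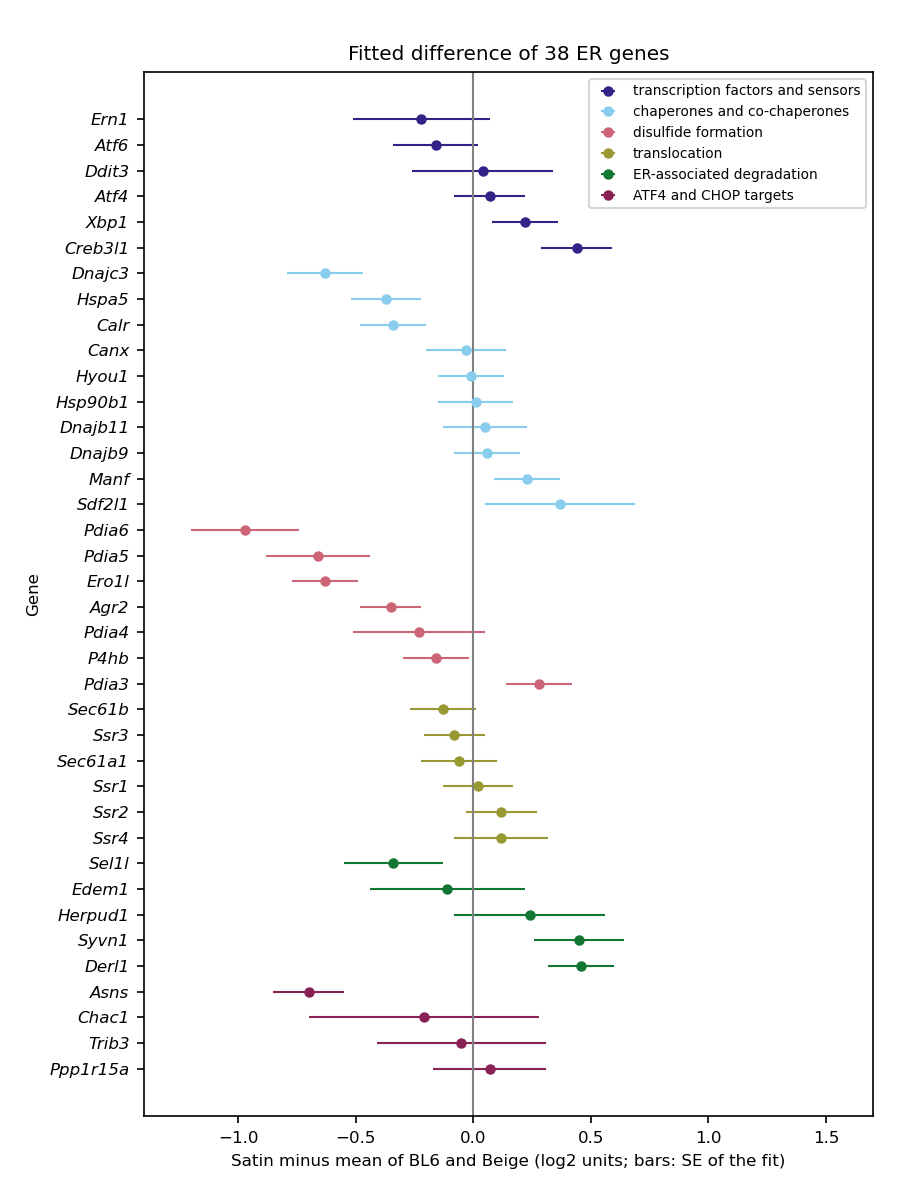
Log2 difference of Satin minus the mean of BL6 and Beige for each of the 38 genes, coloured by role, with bars of 1 standard error of the fit on each side. No gene passed the adjusted test, and Pdia6 (-0.97) and Derl1 (0.46) mark the ends of the range.

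The translocation genes showed the narrowest range, from -0.13 to 0.12, with 3 of 6 above 0. Sec61b, a small subunit of the Sec61 channel, measured 10.64 and 10.58 (BL6), 10.75 and 10.51 (Beige) and 10.42 and 10.56 (Satin). Ssr2, a subunit of the translocon-associated protein complex, measured 8.31 and 8.39 (BL6), 8.47 and 8.56 (Beige) and 8.69 and 8.42 (Satin). For both genes the groups overlapped, with differences of -0.13 (95% interval -0.43 to 0.18) and 0.12 (-0.22 to 0.47). The narrow range holds for the probe sets used, since others of Sec61a1, Ssr1 and Ssr4 reached 0.74, 1.81 and 0.80. The channel gene Sec61a1 (-0.06) and the other subunit genes of that complex, Ssr1 (0.02), Ssr3 (-0.08) and Ssr4 (0.12), lay between them.

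Among the 5 degradation genes 3 were above 0, with a median of 0.24. Derl1, a component of the channel through which proteins leave the ER, measured 9.03 and 8.84 (BL6), 8.62 and 8.71 (Beige) and 9.27 and 9.24 (Satin) (difference 0.46, SE 0.14, 1.37-fold, adjusted p = 0.192, limma). Syvn1, the ubiquitin ligase HRD1, measured 7.77 and 8.38 (BL6), 8.10 and 8.04 (Beige) and 8.51 and 8.54 (Satin) (0.45, SE 0.19, adjusted p = 0.373). The Satin arrays lay above all controls for both. Sel1l, the partner of HRD1, did not follow it. It measured 8.33 and 9.06 (BL6), 8.17 and 8.02 (Beige) and 8.04 and 8.08 (Satin), overlapping Beige (-0.34, adjusted p = 0.576). Herpud1 (0.24, SE 0.32) and the mannosidase-like Edem1 (-0.11, SE 0.33) varied most within BL6.

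The ATF4 and CHOP targets held the member with the smallest p. Asns, which makes asparagine and is a standard reporter of the amino acid response, measured 10.13 and 10.35 (BL6), 10.15 and 10.13 (Beige) and 9.65 and 9.33 (Satin). The groups did not overlap, and the difference was -0.70 (SE 0.15, 1.63-fold lower, adjusted p = 0.0568, limma). It passed the test in 3 of 19 other settings, without the first BL6 array (-0.76, adjusted p = 0.0429), without the second (-0.64, adjusted p = 0.0472) and with robust variance (adjusted p = 0.0358). Over all 19 the adjusted p ran up to 0.586, and it was 0.256 and 0.206 without a Beige array and 0.155 and 0.38 without a Satin array. Its other probe set gave -0.71. Chac1, a glutathione-degrading enzyme induced downstream of ATF4, measured 5.59 and 7.62 (BL6), 6.63 and 5.91 (Beige) and 6.24 and 6.22 (Satin), and its difference of -0.21 (SE 0.49) was smaller than the spread within BL6. The pseudokinase gene Trib3 (-0.05) and the phosphatase subunit gene Ppp1r15a (0.07), which encodes GADD34, differed by less than their errors of 0.36 and 0.24.

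**Figure D3:**
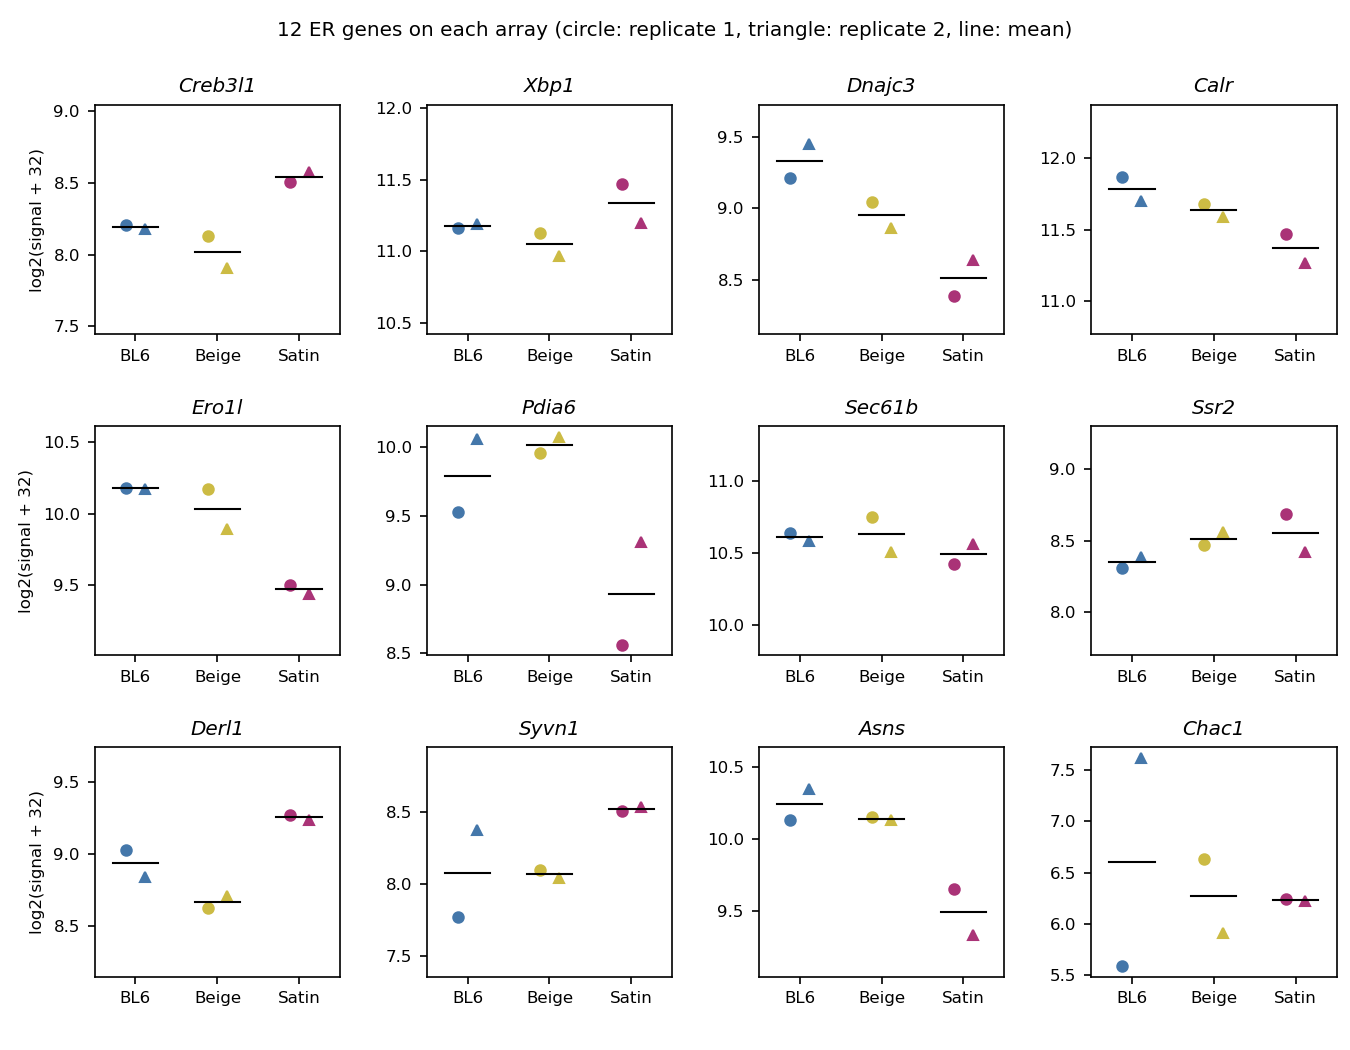
Log2 value on each of the 6 arrays for 12 genes, the 2 of smallest p in each role, with points coloured by strain and a line at each strain mean. Satin points lie below every control point for Dnajc3, Calr, Ero1l, Pdia6 and Asns, and above every control point for Xbp1, Creb3l1, Derl1 and Syvn1. For Sec61b, Ssr2 and Chac1 the ranges of Satin and control points overlap.

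The genes with the ER stress element did not share 1 direction. Their 7 differences had a median of -0.34 and ran from -0.97 (Pdia6) to 0.45 (Syvn1), 5 of them below 0. Of those below 0, Canx was at -0.03, and Hspa5 and Calr were above 0 as deposited, at 0.01 and 0.15. The other 24 genes with a promoter in the table had a median of -0.07, with 13 below 0. Whether the element has a part in these values was not tested. Of the genes with the ATF4 core, Asns was at -0.70, Chac1 at -0.21 and Herpud1 at 0.24.

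The values above come from quantile-normalised signals, and the scaling of the arrays moved every gene. Relative to quantile normalisation, which sets the median of all genes at -0.00, that median was 0.43 with the signals as deposited, 0.10 with each array centred on its median, and 0.47 with scaling to the hybridization controls. Pdia6, Asns, Pdia5, Dnajc3 and Ero1l were below 0 under all 4 scalings but close to it under some, at -0.45, -0.19, -0.21, -0.08 and -0.10 as deposited and at -0.40, -0.14, -0.17, -0.04 and -0.05 with hybridization controls. Creb3l1, Derl1, Syvn1, Xbp1 and Pdia3 were above 0 under all 4. Hspa5, Calr and Agr2 were below 0 under quantile normalisation and median centring and above 0 under the other scalings, at 0.01, 0.15 and 0.02 as deposited.

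As deposited, Asns had signals of 839.6 and 1068.3 (BL6), 954.9 and 1239.0 (Beige) and 1028.3 and 764.3 (Satin), so the groups overlapped. Derl1 had 377.1 and 342.6 (BL6), 300.4 and 430.3 (Beige) and 789.9 and 719.3 (Satin), with no overlap. On this scale 6 of the 38 members passed the test, all higher in Satin (Xbp1, Creb3l1, Manf, Pdia3, Syvn1 and Derl1). Of all 9388 genes tested there, 1469 were called higher and 62 lower. No member had both Satin arrays below all controls, against 2.04% of all genes, and 19 members had both above, against 44.2%. With hybridization controls 14 of the 38 members were called higher, where 2210 of 9385 genes were higher and 61 lower. With median centring no member was called, where 46 of 9388 genes were higher and 46 lower. These counts are a description and not a test of the set.

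Set against the median of all genes on the same scale, the as-deposited differences were close to those after normalisation. They were -0.88 for Pdia6, -0.62 for Asns, -0.64 for Pdia5, -0.53 for Ero1l and -0.51 for Dnajc3, and 0.55 for Creb3l1, 0.57 for Derl1 and 0.55 for Syvn1. The median of the 38 differed from that of all genes by 0.01 as deposited and by -0.04 after quantile normalisation.

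**Figure D4:**
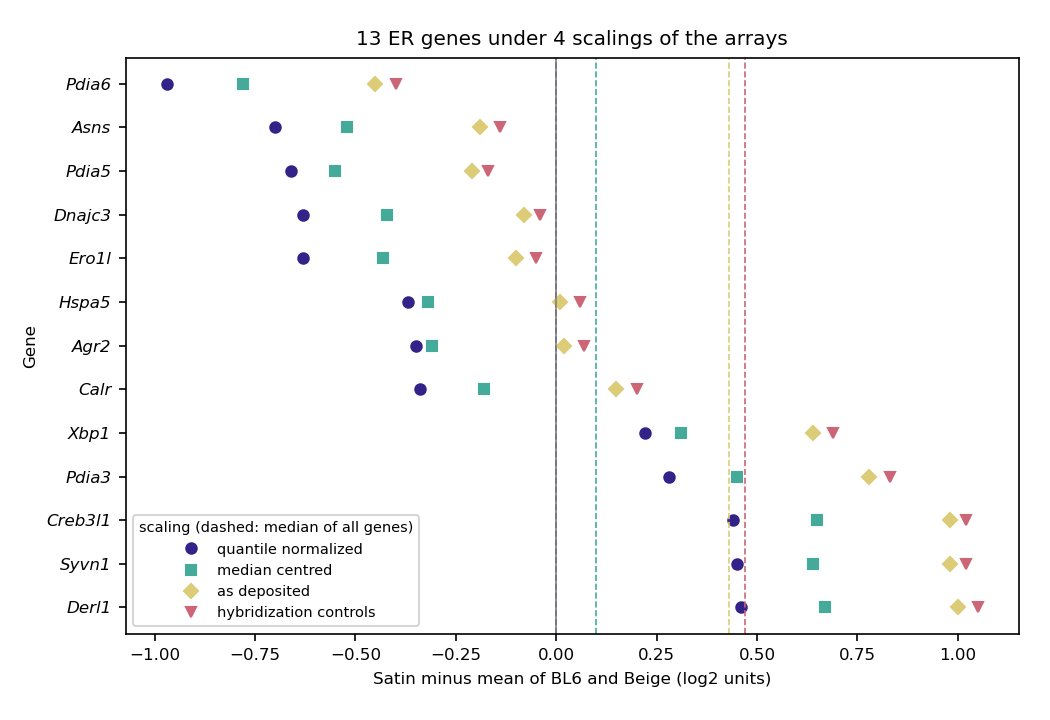
Log2 difference of Satin minus the mean of BL6 and Beige under 4 scalings of the arrays, for the 13 genes whose Satin arrays lay apart from all control arrays, with dashed lines at the median of all genes under each scaling. The order of the genes is similar throughout, and as deposited the whole set lies further right, with Hspa5, Agr2 and Calr crossing 0.

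Each control strain was also compared on its own. These comparisons share arrays, so their values are given side by side and not as repeats of one another. Between Satin and Beige no member passed the test, against 0.883% of all genes, and 7 members (18.4%) had an unadjusted p under 0.05 against 10.6%. Between Satin and BL6 none passed, against 0.745%, and 10 (26.3%) had an unadjusted p under 0.05 against 12.6%. The median of the members was 0.02 against Beige and -0.12 against BL6. Pdia6 was -1.09 against Beige (SE 0.26) and -0.86 against BL6 (SE 0.26), and Asns was -0.65 and -0.75 (SE 0.17 each). Ero1l was -0.56 and -0.70 and Dnajc3 was -0.43 and -0.82, while Derl1 was 0.59 and 0.32.

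Beige and BL6 differed in no gene of the array that passed the test (0%), and 2 members, Hyou1 and Sel1l, had an unadjusted p under 0.05 (5.26%, against 5.14% of all genes). The members had a median of -0.13 for Beige minus BL6, with 13 above and 25 below 0, and ranged from -0.60 for Sel1l to 0.70 for Ddit3. Hyou1 measured 9.61 and 9.90 in BL6 and 9.26 and 9.24 in Beige (-0.50, SE 0.16, adjusted p = 0.865, limma). Ddit3 measured 5.79 and 6.73 in BL6 and 7.22 and 6.71 in Beige, which overlapped.

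The 2 BL6 arrays differed from each other in several stress genes. On the second array Chac1 was higher by 2.04 log2 units, Edem1 by 1.47, Herpud1 by 1.45, Sdf2l1 by 1.19 and Ddit3 by 0.94. Others were lower there, among them Pdia4 (-1.08) and Canx (-0.52). In the order Chac1 to Ddit3, the Satin arrays differed by -0.02, 0.15, 0.02, 0.34 and 0.10. The Beige arrays differed by -0.72, -0.26, 0.29, -0.08 and -0.50. The Gapdh ratio also differed between the BL6 arrays, 0.526 on the first and 0.988 on the second, and its part was not tested here. In all, 9 members were more than 0.5 higher on the second BL6 array, when 15.4% of all genes were. In Beige 1 member was (Trib3, against 12.8% of all genes) and in Satin 2 were (Pdia5 and Pdia6, against 8.44%). The acinar markers were also higher on the second array, 12 of 14 of them in all 3 strains. Their summed signal was 21107 and 102820 (BL6), 21020 and 28811 (Beige) and 18960 and 56771 (Satin). The exceptions, Clps (13.15 to 13.27) and Pla2g1b (12.57 to 13.10), were high on every array and weigh on the sums of the first arrays. The sums therefore understate the rise of other markers, such as Cpa1, at 5.09 and 9.92 in Beige. None of the 14 was at 0, and on the first arrays 6, 2 and 4 of them in BL6, Beige and Satin were below the filter level. Pancreatic acinar cells are rich in ER, and the part of these cells in the members' values was not tested beyond the following comparisons.

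Among the 3 first arrays alone, Satin minus the mean of the others was -1.18 for Pdia6, -0.50 for Asns, -0.67 for Ero1l, -0.73 for Dnajc3 and -1.03 for Pdia5. Among the second arrays it was -0.76, -0.91, -0.59, -0.52 and -0.30 in the same order. Derl1 was 0.45 and 0.47, Creb3l1 0.35 and 0.53 and Syvn1 0.57 and 0.32. Herpud1 was 0.67 among the first arrays and -0.18 among the second. With the mean of the acinar markers as a covariate, an alternative chosen after the marker levels were seen, Pdia6 was at -0.98 (SE 0.14, adjusted p = 0.0116, limma) and no other member passed the test.

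**Figure D5:**
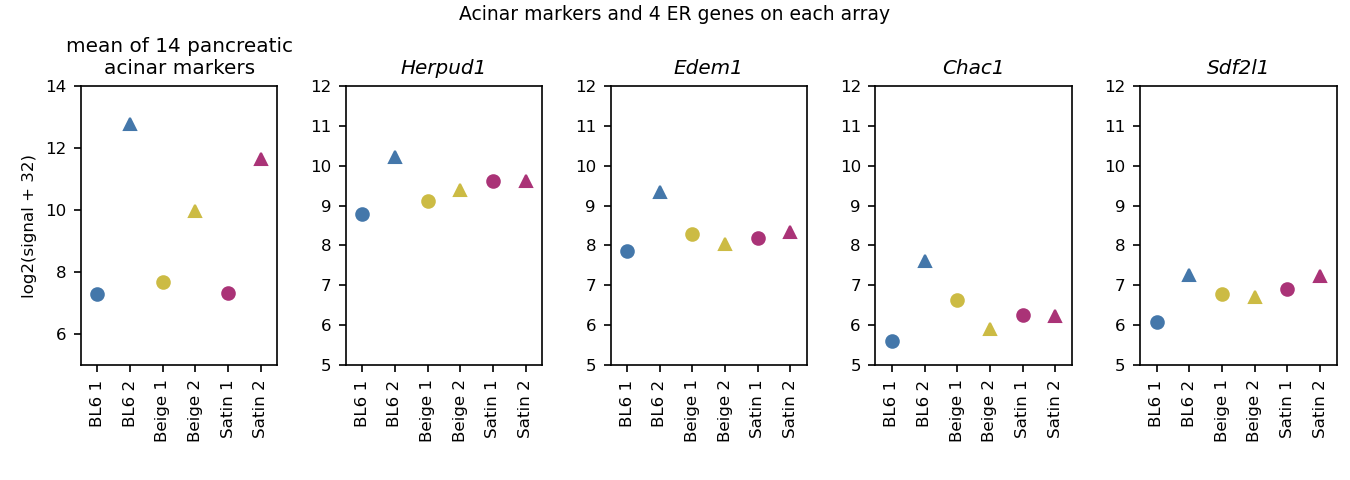
Mean log2 value of 14 pancreatic acinar markers and log2 values of Herpud1, Edem1, Chac1 and Sdf2l1 on each of the 6 arrays, with circles for first and triangles for second arrays and colours for strains. The acinar mean is higher on the second array of every strain, and Herpud1, Edem1 and Chac1 are highest on the second BL6 array. Sdf2l1 is at 7.25 on that array and at 7.24 on the second Satin array.

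Single markers of several other cell types differed between Satin and the controls, and their lists did not always follow. Of 8 plasma and B cell markers tested, Igha (3.34, adjusted p = 0.00142) and Jchain (2.00, adjusted p = 0.0263, limma) were higher in Satin, and the list's summed signal was 1354 to 2756 in BL6, 1652 to 2359 in Beige and 3500 to 4589 in Satin. Of 7 surface mucous cell markers only Muc5ac passed (-4.35, adjusted p = 1.26e-06), and the list had a median of -0.01 with 3 above 0. Its summed signals, Muc5ac included, were 46204 to 52677 in the controls and 42488 and 44841 in Satin. The chief cell gene Pga5 rose (3.11, adjusted p = 0.000205), as did the deep gland gene Bpifb1 (4.37, adjusted p = 0.00229), 1 of 3 and 1 of 4 in their lists. Of 11 enteroendocrine markers 3 fell, among them Gast (-1.41, adjusted p = 0.0185), and of 10 smooth muscle markers 4 fell, among them Des (-1.53, adjusted p = 0.00758). Of 5 absorptive cell markers 2 fell, with Fabp2 at -4.62 (adjusted p = 4.90e-06), and 1 of 6 macrophage and neutrophil markers, S100a8, rose (1.83, adjusted p = 0.022). No marker of parietal cells (7), goblet cells (5), fibroblasts (7) or acinar cells (14) passed. The medians of these lists were 0.62 (7 above 0), -1.45 (0 above 0), -0.20 (1 above 0) and 0.10 (7 above 0) in that order. The goblet markers had a mean of 7.42 on the first Satin array and 10.00 to 10.37 elsewhere. The part of these cell types in the ER genes was not tested.

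Wider lists of the same pathway gave few calls. Of 29 translocation and N-glycosylation genes 1 rose, Tusc3, a subunit of the oligosaccharyltransferase, which measured 8.02 and 8.02 (BL6), 7.69 and 8.26 (Beige) and 9.14 and 8.93 (Satin) (1.04, SE 0.19, adjusted p = 0.0329, limma). The list's median was -0.03. None of 31 other folding factors passed (median 0.04), and the smallest p-values were those of Txndc12 (0.66, adjusted p = 0.0681), a thioredoxin-like protein of the ER, and Qsox1 (-0.71, adjusted p = 0.0698), a sulfhydryl oxidase. None of 20 other degradation genes passed (median -0.04), with the ubiquitin-conjugating enzyme genes Ube2j1 at -0.60 and Ube2j2 at 0.33.

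None of 17 other regulators of the unfolded protein response passed (median -0.03), with Creb3l2 at 0.46 and Nfe2l2 at 0.41. None of 25 other ATF4 targets passed (median 0.02), and the 2 of smallest p were tRNA synthetase genes that pointed opposite ways, Wars at -0.73 (adjusted p = 0.0868, limma) and Iars at 0.71 (adjusted p = 0.196). None of 34 genes of transport between ER and Golgi passed (median 0.03), with the coat gene Sec31a at 0.47 and the SNARE gene Sec22b at -0.39. Outside the ER, 2 of 10 cytosolic heat shock genes rose, Hspa1b (2.06, adjusted p = 0.0212) and Hspa1a (1.62, adjusted p = 0.0375), with a list median of 0.27. Both are near-identical copies, so their probe sets may not tell them apart.

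Other probe sets of the members did not always follow the one used. There were 43 such probe sets for 22 genes, 38 of them above the filter, and 21 of the 38 had the sign of the probe set used. Calr gave -0.20 and -0.08 beside -0.34, but Hspa5 gave 0.17 beside -0.37 and Agr2 gave 0.53 beside -0.35. Dnajc3 had 4 others, at -0.34, -0.36, 0.28 and 0.07. Derl1 gave 0.07, 0.31 and 0.56, all above 0, and Xbp1 gave -0.02, -0.23 and 0.45. Sec61a1, at -0.06 on the probe set used, gave 0.74 (adjusted p = 0.115 over probe sets, limma) on one that read 8.45 to 8.89 on the controls and 9.36 and 9.46 on Satin, and 0.45, 0.21, -0.18 and -0.25 on the rest. Hyou1 gave 0.77 beside -0.01 (adjusted p = 0.306). The other probe set of Pdia6 (-0.31) was below the filter. The platform's suffixes mark the probe sets used for Xbp1, Hyou1, Calr, Canx, Ssr4 and Derl1 as ones that may bind transcripts of more than 1 gene.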

How the data were processed

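Values were probe set signals of 6 one-colour arrays. The authors' deposited table gives them as linear intensity, 1 column per sample; for the algorithm, scaling and detection calls behind them, nothing is given in the sources used here. RNA was extracted with Trizol, per the labels. The table held 22690 probe sets, 64 of them controls; of the other 22626, GEO's platform annotation gave 1 symbol to 20380, several to 691, and 1555 were not listed.

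Signals were transformed as log2(signal + 32), so fold changes of low genes are understated, and quantile normalised. Genes (12393) were read from the brightest probe set on average, and the lowest 30% by mean signal (under 5.74) were left out. limma 3.58.1 (R 4.3.3) fitted the 6 arrays by strain (3 residual degrees of freedom) with eBayes and its intensity trend, two-sided, and p-values were Benjamini-Hochberg adjusted over 9395 genes, with calls under 0.05. The fit was tested on simulated data with independent noise, where recovery was required only for changes larger than any member showed. The number of arrays limits the precision.

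The members, gene lists and marker lists were chosen with earlier results of these data known. Values on every array are given for the 2 genes of smallest p per role (Satin against the controls), and a few others were added after their values were seen. From further lists, up to 4 called genes, or else the 2 of smallest p, are named, with a fixed set of cell type markers. Promoter sequences are RefSeq's (GRCm38.p6); protein sequences were not used here. Alternatives covered the scaling, pseudocounts of 16 and 100, the filter, the probe set rule, the eBayes settings, covariates and single arrays left out.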

Additional observations from a re-analysis of the deposited data

Results flagged for a closer look

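A second probe set of Ssr1, a subunit of the translocon-associated protein complex, was not used for the gene because it was dimmer, and it gave a signal that the comparison above does not show. It measured 6.34 and 7.08 (BL6), 7.49 and 6.79 (Beige) and 8.73 and 8.73 (Satin), with both Satin arrays above all controls. The difference was 1.81 (SE 0.27, adjusted p = 0.0173 over probe sets, limma), and it was the only other probe set of the 38 genes to pass the test. The probe set used for Ssr1 gave 0.02 and the third gave 0.01. Which transcripts the 3 probe sets bind was not tested.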

How the results depend on the processing

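For Satin against the mean of the controls, 6 members passed with the signals as deposited, among 1531 of 9388 genes. With hybridization controls 14 passed, among 2271 of 9385 genes. Robust eBayes gave 3, among 225 of 9395 genes, and the replicate block 1, among 123. The acinar covariate (added after seeing the data) gave 1, among 161. Against Beige, 1 passed as deposited (among 191 genes), 1 with hybridization controls (176), 1 with the replicate block (85) and 1 with the acinar covariate (110). Against BL6, 9 passed as deposited, among 1875 of 9388 genes, and 17 with hybridization controls, among 3023 of 9385 genes. Apart from fits with single arrays left out, all other settings run, and all settings for Beige minus BL6, gave 0.

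The members' median (as deposited, median centring, hybridization controls, mean of probe sets) was 0.44, 0.11, 0.48 and 0.06 for Satin against the controls, 0.37, 0.09, 0.36 and 0.05 against Beige, 0.48, 0.09, 0.60 and 0.09 against BL6, and 0.15, 0.03, 0.28 and -0.05 for Beige minus BL6. With the Gapdh ratio as a covariate it was -0.12 against the controls and -0.19 against BL6. With arrays left out it ranged from -0.08 to -0.01, from -0.07 to 0.04, from -0.15 to -0.07 and from -0.14 to -0.06 in the same order of comparisons. The scalings shift all genes by construction, and for the other settings the cause was not tested.

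Of single genes at an unadjusted p under 0.05, signs turned in 15 cases. Against the controls, Agr2 was 0.02 as deposited, 0.07 with hybridization controls and 0.09 with the mean of probe sets, Calr 0.15 and 0.20, and Hspa5 0.01 and 0.06. Against BL6, Calr was 0.11 and 0.23, Sel1l 0.01 and 0.12, Hspa5 0.05 and 0.17, and, with hybridization controls, Asns 0.03 and Ero1l 0.09. In 550 cases the call and direction were as reported, and in 24 the gene newly passed.

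Of all genes, 135 passed for Satin against the controls, but 36 without the trend, 60 with the Gapdh covariate, 225 with robust eBayes, 1531 as deposited, 2271 with hybridization controls, 298 without the second BL6 array, 34 without the first Beige array, 28 without the second and 41 without the first Satin array. Replicate numbers are shared between strains, but no label pairs them. Deviations of same-numbered arrays correlated at 0.12 for BL6 with Beige, 0.27 for BL6 with Satin and 0.19 for Beige with Satin, and with the replicate block 123 genes passed, Pdia6 among them (-0.97, SE 0.17, adjusted p = 0.0305, limma). With 2 arrays per strain, the unadjusted 95% intervals of the members had a median half-width of 0.35 log2 units. For a typical member, smaller differences could not be told from 0 even without adjustment. Dim genes such as Trib3 and Chac1 have wider intervals. In the fit by strain alone, larger differences also failed the adjusted test. Among them were Pdia6 at -0.97 (adjusted p = 0.0797, limma), Asns at -0.70 (adjusted p = 0.0568) and Dnajc3 at -0.63 (adjusted p = 0.101). The lack of a call therefore does not by itself exclude differences above 0.35.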
